A study of Mus musculus with 6 samples.

Results

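The Myc, Max and partner network was examined in mouse embryonic stem (ES) cells labelled as knockout for Alkbh1, which encodes a dioxygenase of the AlkB family, whose enzymes remove methyl groups from nucleic acids. The network was taken as 10 genes chosen by name and role, of 23951 genes in the authors' deposited table. Of these, 9 were found by symbol and 1, Mycl1, by its current symbol Mycl, and all 10 had been tested by the authors. The wild-type (WT) group was the TT2 ES cell line, on a mixed C57BL6 and CBA background, with 2 libraries. The knockout (KO) group was Alkbh1 KO cells with 4 libraries, 2 from each of 2 clones, and all cells were at passage 5 and grown without feeder cells. Strand-specific messenger RNA libraries were sequenced, and the table gives each gene's FPKM (fragments per kilobase of transcript, adjusted for sequencing depth) as 1 value per condition, with the authors' log2 fold change, p and q. Values of single libraries are not part of this table, so levels have no SD, clones were not compared, and the depth of each library is unknown. Differences between clones cannot be told apart from an effect of the genotype. In such bulk values, fewer cells that express a gene and less RNA per cell cannot be told apart either.

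MYC, MYCN and MYCL are transcription factors of the basic helix-loop-helix leucine zipper class, which bind DNA only as a dimer with MAX. The dimer recognises the E-box CACGTG and activates genes of growth, ribosome synthesis and the cell cycle. MAX also pairs with MXD proteins (Mxi1 encodes one of them), with MNT and with MGA, and these pairs occupy the same motif and repress. MLX is a second, MAX-like partner that pairs with some MXD proteins, with MNT and with the glucose-sensing factors MondoA and ChREBP. In ES cells MYC and MYCN are known for sustaining proliferation and self-renewal, and MGA with MAX for repressing germline genes.

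The libraries carried the profile of ES cells. The summed level of 7 ES cell markers was 6299 FPKM in WT against 3848 FPKM in KO, with none at 0, against 7.66 and 11.1 FPKM for 6 fibroblast markers (Col3a1 at 0 in WT) and 0.773 and 1.02 FPKM for 5 endoderm markers, per the authors' deposited table. Of 6 ES markers tested, the authors' deposited table called 4 lower and none higher. Of 4 fibroblast markers tested, 3 were higher and 1 lower, and the 1 endoderm marker tested was higher. Among all tested genes, 28.4% were lower and 22.4% higher. The part of these markers in the results below was not tested. Alkbh1 itself stood at 33.9 FPKM in WT against 18.1 FPKM in KO (log2 fold change -0.90, q = 0.0943, per the authors' deposited table), which did not pass a q under 0.05. The table gives the region of Alkbh1 jointly with other genes, Slirp and Snw1 among them, so its value may hold reads of a neighbour. Fold changes in this table followed expression level: the median log2 fold change was 0.69 in the lowest decile of the tested genes by mean FPKM and -0.72 in the highest. Each member below is therefore also set beside the genes of its own decile, and each list by how its genes differed from their decile medians. The summed FPKM of tested genes was 981679 in WT and 624340 in KO, and equal sums would raise every log2 fold change by 0.65, and with it the median of all tested genes from -0.06 to 0.59.

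The activators Mycn and Myc fell to 30.5% and 35.3% of their WT level. The obligate partner Max and the MAX-like Mlx fell less. Both fell only as measured, since equal summed FPKM put them at log2 fold changes of 0.012 and -0.02. Of the repressive partners, Mga rose (log2 fold change 0.43) and Mxd4 rose from a very low level (0.150 FPKM in WT). The repressive partners Mxd3, Mxi1 and Mnt were not called. By the authors' q under 0.05, 6 of the 10 members were called, where 50.8% of all 14095 tested genes were. Of the members, 4 were lower, against 28.4% of tested genes, and 2 were higher, against 22.4%. These shares lie near the background, so the number of calls is no result about the network. At q under 0.01 the members called were 5, against 39.9% of tested genes, with 4 lower (22.6%) and 1 higher (17.2%). At least a 2-fold difference was found for 3, against 14.4%, and Mycn and Myc were the 2 lower (5.36%) and Mxd4 the 1 higher (9.04%). The members' median log2 fold change was -0.29, beside -0.06 over all tested genes. What set single members apart was the size of their fold change among genes of like level.

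**Figure D1:**
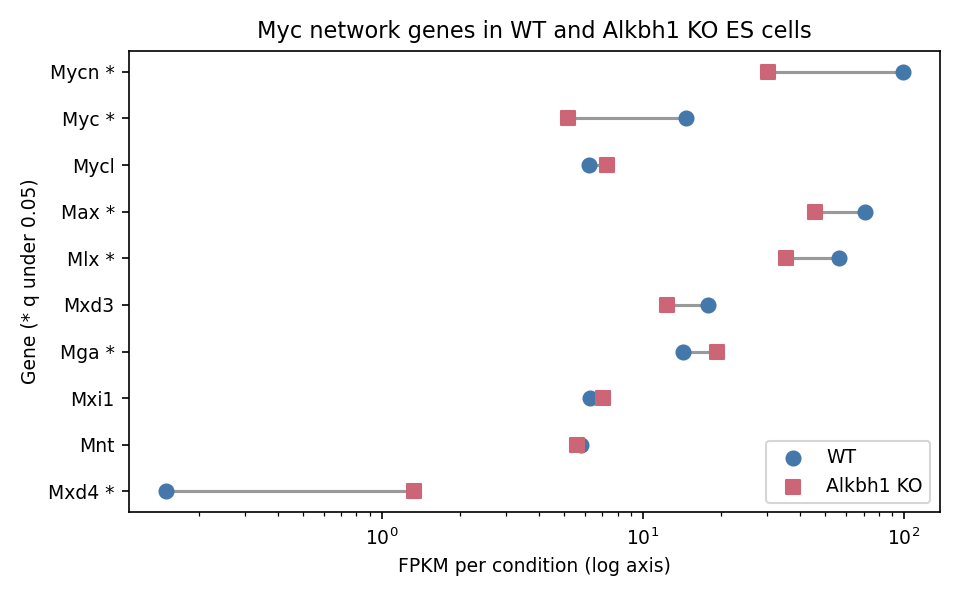
Level of each member in FPKM (log axis) in WT (circles) and Alkbh1 KO (squares), 1 pooled value per condition with no error available; a star marks a deposited q under 0.05. Mycn moved from 99.0 to 30.2 FPKM and Myc from 14.6 to 5.16 FPKM, while Mycl, Mxd3, Mxi1 and Mnt were not called.

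Mycn was the most abundant gene of the network in WT and had the largest fall. Mycn (chromosome 12, 12942898 to 12948642, mm9) fell from 99.0 FPKM in WT to 30.2 FPKM in KO, per the authors' deposited table, a 3.28-fold difference (log2 fold change -1.71, q = 0.000206). In its level decile, of 1402 genes with a median of -0.51, 0.285% had a lower fold change. The KO value was 30.5% of the WT value, which placed Mycn below Max and Mlx in KO, whereas it had stood above both in WT. With equal sums the log2 fold change of Mycn was -1.06.

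Myc, the founding member of the family, changed by a similar factor from a lower level. Its transcript (chromosome 15, 61816895 to 61821916, mm9) fell from 14.6 to 5.16 FPKM, per the authors' deposited table, a 2.83-fold difference (log2 fold change -1.50, q = 0.000206). Of the 1399 genes in its decile, with a median of -0.03, 0.429% lay below it. Equal sums gave -0.85. The q of 0.000206 is the smallest in the authors' deposited table and is shared by 3418 genes, so Myc and Mycn cannot be ranked by it.

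Mycl, the third family member, had no such fall. It stood at 6.20 FPKM in WT against 7.30 FPKM in KO (chromosome 4, 122673341 to 122679723, mm9), per the authors' deposited table, that is 0.23 on the log2 scale (q = 0.261). In its decile 61.6% of genes lay below it. Whether Mycl differed from Myc or Mycn in its response was not tested, since the table holds no value per library. Mycl was the least abundant of the 3 in WT, and in KO its value lay above that of Myc.

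The promoter of Mycn is shown because Mycn had the largest fall of the network. The stretch is the 250 bases before the transcription start in RefSeq (GRCm38.p6, chr12:12941837-12942086, minus strand), written 5′ to 3′, and capitals mark matches to the E2F-type motifs TTTGGCGC and TTTCGCGC on either strand, 3 matches of which 2 overlap. This motif was chosen after the sequence was seen, so its presence in Mycn was fixed by that choice and the shares below test nothing.
Mycn: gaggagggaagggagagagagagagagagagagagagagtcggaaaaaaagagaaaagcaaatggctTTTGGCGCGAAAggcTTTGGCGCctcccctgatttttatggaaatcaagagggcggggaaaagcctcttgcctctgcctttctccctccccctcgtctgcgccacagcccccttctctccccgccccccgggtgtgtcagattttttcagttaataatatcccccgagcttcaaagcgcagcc
Of 32851 RefSeq promoter windows of 300 bases, 0.813% held at least 1 such match, and among the 9 members with a window (all but Myc) Mycn was the 1 that did. A match is a description of these letters, and binding was not measured.

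Max, the common dimer partner, was lower in KO by about as much as other genes of its abundance. Max (chromosome 12, 78038255 to 78063235, mm9) fell from 71.1 to 45.6 FPKM, per the authors' deposited table, a 1.56-fold difference (log2 fold change -0.64, q = 0.000206). Its decile had a median of -0.51, and 36.7% of the genes there lay below Max. The direction depended on scaling: with equal sums the log2 fold change of Max was 0.012, and against genes of like level and length 0.0026.

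Mlx was also lower, by a like amount. The table lists Mlx (chromosome 11, 100948603 to 100956749, mm9) at 56.4 FPKM in WT against 35.3 FPKM in KO, a fall to 62.7% of the WT level (log2 fold change -0.67, q = 0.00271, per the authors' deposited table). In the same decile as Max, 33.5% of genes lay below Mlx, and equal sums left it at -0.02. The authors' deposited table gives this region jointly with Psmc3ip, a recombination gene that fell from 61.7 to 40.0 FPKM, so the 2 values may share reads. Max and Mlx thus differed from the median of their level decile by -0.13 and -0.16, beside -1.20 for Mycn.

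Among the partners that repress with MAX, Mga was the most abundant in KO. Mga, which encodes a very large protein with a T-box as well as a helix-loop-helix zipper domain (chromosome 2, 119722963 to 119795317, mm9), rose from 14.2 to 19.2 FPKM, per the authors' deposited table, a 1.35-fold difference (log2 fold change 0.43, q = 0.0112). Its decile had a median of -0.15, and 10.7% of the 1401 genes there lay above it. Its longest transcript, of 13931 bases, falls in the longest decile of transcripts, whose median log2 fold change was 0.44, near that of Mga. Beside tested genes of like level and length, a comparison added after the data were seen, Mga stood 0.44 above the median. Mga missed a q under 0.01, and with equal sums its log2 fold change was 1.09.

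Mxd4 had the largest fold change of the network, from a very low level. This gene of the MXD family (chromosome 5, 34519228 to 34530359, mm9) rose from 0.150 FPKM in WT to 1.32 FPKM in KO, per the authors' deposited table, an 8.86-fold difference (log2 fold change 3.15, q = 0.00310). In its decile, of 1408 genes with a median of 0.46, 0.142% lay above it. On the log2 of FPKM plus 1 the difference was 1.02, and even in KO Mxd4 remained the least abundant member.

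Mxd3, Mxi1 and Mnt were not called. Mxd3, an MXD gene known for expression in dividing cells (chromosome 13, 55423415 to 55431091, mm9), stood at 17.8 FPKM in WT against 12.3 FPKM in KO, per the authors' deposited table (log2 fold change -0.53, q = 0.405). Its region is shared with Prelid1, a mitochondrial lipid transfer gene that fell from 231 to 153 FPKM, per the authors' deposited table. Mxi1 (chromosome 19, 53384995 to 53450300, mm9) stood at 6.28 and 7.05 FPKM, per the authors' deposited table (log2 fold change 0.17, q = 0.425). Mnt, the broadly expressed MAX partner (chromosome 11, 74644425 to 74659227, mm9), was listed at 5.78 and 5.58 FPKM, per the authors' deposited table (log2 fold change -0.05, q = 0.833). In their level deciles, 23.6%, 56.0% and 39.6% of genes lay below these 3 in turn. Mxd1, a further MXD gene outside the 10, had 1.38 FPKM in WT against 1.42 FPKM in KO, per the authors' deposited table (q = 0.858).

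**Figure D2:**
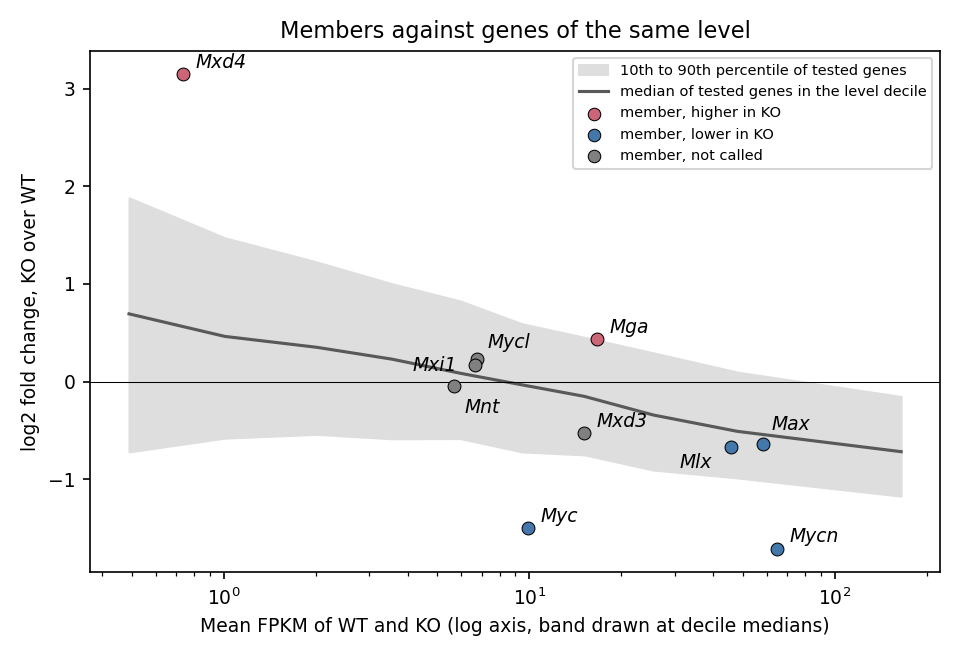
Log2 fold change of KO over WT for each member (points, coloured by the deposited call) against its mean FPKM (log axis), with the median (line) and the 10th to 90th percentile (band) of tested genes in each level decile. Mycn and Myc lie below the band and Mxd4 above it, while Max and Mlx lie close to the median line.

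The order of levels changed between the conditions. In WT it ran Mycn, Max, Mlx, Mxd3, Myc, Mga, Mxi1, Mycl, Mnt and Mxd4, and in KO Max, Mlx, Mycn, Mga, Mxd3, Mycl, Mxi1, Mnt, Myc and Mxd4, per the authors' deposited table. FPKM is per length, so levels of different genes can be set side by side, but with no spread at hand neighbours such as Myc and Mga in WT (14.6 and 14.2 FPKM) or Mycl and Mxi1 in KO (7.30 and 7.05 FPKM) cannot be ordered with an error.

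Sums over the roles gave ratios that a common scaling factor per condition does not change. The trend of fold change with level does not cancel in them. The decile median was -0.51 for Mycn, and from -0.15 (Mga and Mxd3) to 0.46 (Mxd4) for the repressive partners. The part of this trend in the ratios was not tested. The Myc family (Mycn, Myc and Mycl) summed to 119.8 FPKM in WT against 42.6 FPKM in KO from the authors' deposited table, and Mycn made up 82.6% and 70.8% of it. The 5 repressive partners Mga, Mxd3, Mxi1, Mnt and Mxd4 summed to 44.2 FPKM in WT against 45.5 FPKM in KO. The ratio of the Myc family to these partners was thus 2.71 in WT and 0.938 in KO, a 2.89-fold difference. Relative to Max, the Myc family stood at 1.69 in WT and 0.936 in KO, and the repressive partners at 0.622 and 0.998. Without Mga, which had the highest mean FPKM of the partners over both conditions (Mxd3 was higher in WT), the ratio of the Myc family to the partners differed by 2.46-fold. No test of these ratios is possible with 1 value per condition, and they are ratios of transcripts, not of protein.

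**Figure D3:**
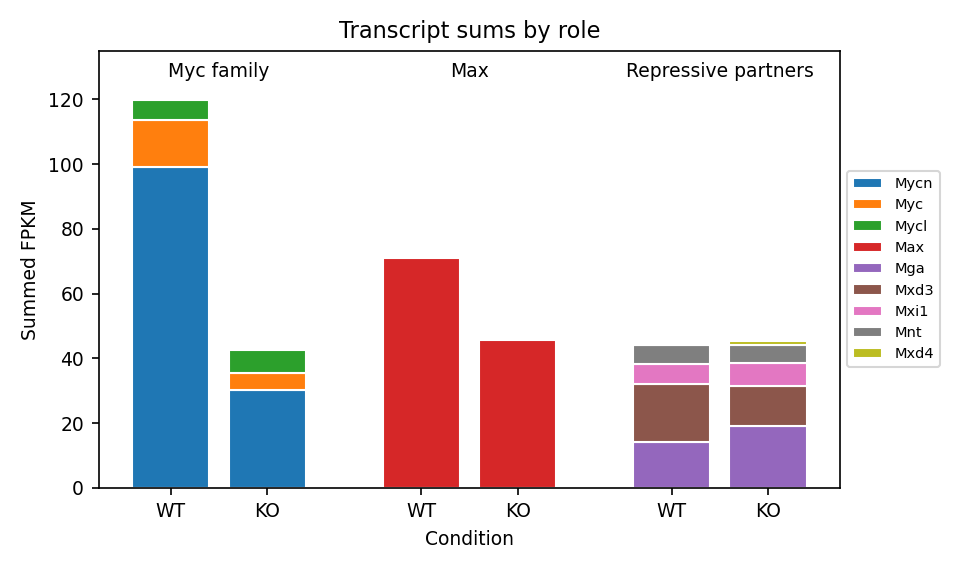
Summed FPKM in WT and KO for the Myc family, Max and the repressive partners, stacked by gene; bars start at 0 and there is 1 pooled value per condition. The Myc family bar falls from 119.8 to 42.6 FPKM while that of the repressive partners stands at 44.2 and 45.5 FPKM.

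The members' own promoters were searched for the E-box CACGTG, the motif that the network's dimers bind, which reads the same on both strands. Of the 9 members with a RefSeq window, 4 held it, Max, Mlx, Mnt and Mxd4, while 7.15% of all 32851 windows did. Members were counted by gene, and Mxi1 has 3 windows, whereas the share is of single windows, so the units differ. Counted from the start, the E-box lay at -3 to 3 in Max, at -40 to -35 in Mlx, at -123 to -118 in Mnt and at -219 to -214 in Mxd4. The transcribed part of the Max window was not found in a GENCODE M21 transcript of Max, so the start from which its position is counted is uncertain. The 30 bases around it are printed for 3 of them, to show the motif in place, with the E-box in capitals and the gene's strand read 5′ to 3′ (GRCm38.p6, chr12:76962234-76962263 minus, chr11:101087238-101087267 plus and chr11:74830789-74830818 plus).
Max: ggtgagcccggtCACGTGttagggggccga
Mlx: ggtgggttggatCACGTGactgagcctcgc
Mnt: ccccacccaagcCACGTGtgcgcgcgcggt
For Mxd4, which had the largest fold change, the 250 bases before the start are given (GRCm38.p6, chr5:34187711-34187960, minus strand).
Mxd4: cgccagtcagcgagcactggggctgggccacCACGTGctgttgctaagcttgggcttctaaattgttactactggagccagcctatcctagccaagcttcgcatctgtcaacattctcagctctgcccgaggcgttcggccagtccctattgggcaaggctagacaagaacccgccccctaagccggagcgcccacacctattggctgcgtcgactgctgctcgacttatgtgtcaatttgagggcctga
The 4 genes with the motif did not move together: Max and Mlx fell, Mxd4 rose and Mnt was not called. Windows of Mycn, Mycl, Mga, Mxd3 and Mxi1 did not hold these letters, and other E-box variants were not searched.

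The genes around the network were read from 11 lists chosen by textbook role, in 169 genes. Regions of Ccnt1, Ep400, Zbtb17, Huwe1, Gsk3b, Stub1, Skp2, Fbxw7, Ctnnb1, Pvt1, Rbbp7, Ncor1, Nop58, Ccnd2, Eno1, Gadd45a, Txnip, Sycp3, Jak1 and Hnrnpk are joint with another gene, per the authors' deposited table, so these values are uncertain to that extent.

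Of 14 tested upstream regulators and neighbours of Myc, 2 were higher and 4 lower, beside 22.4% and 28.4% of all tested genes. Their calls are thus no result about these genes. Against level deciles, 8 of the 14 lay above the median of their decile and 6 below, with a median difference of 0.08. Higher were the cytokine receptor subunit Il6st (0.43) and the kinase Jak1 (0.52), both of the LIF pathway, per the authors' deposited table. Lifr, the LIF receptor gene, was not called, at 11.8 FPKM in WT against 11.9 FPKM in KO (q = 0.945, per the authors' deposited table). Lower were Cnbp (log2 fold change -1.31), Fubp1 (-0.53) and Hnrnpk (-0.56), which bind control elements of MYC, and Ctcf (-0.41), per the authors' deposited table. Stat3, which LIF activates, was listed at 20.5 FPKM in WT against 22.2 FPKM in KO (q = 0.575), and Ctnnb1, the effector of WNT signalling, at 292 and 244 FPKM (q = 0.147), per the authors' deposited table. Pvt1, the long non-coding neighbour of Myc on chromosome 15, stood at 5.05 FPKM in WT against 3.95 FPKM in KO (log2 fold change -0.35, q = 0.0945, per the authors' deposited table).

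Genes that modify or degrade the MYC protein were called in both directions. Of 15 tested, 5 were lower and 2 higher, beside 28.4% and 22.4% of all tested genes, with a median of -0.27. Against level deciles, 10 of the 15 lay above the median of their decile and 5 below, with a median difference of 0.18. The MYC-stabilising C330027C09Rik, now named Cip2a (-0.58), and the kinase gene Aurka (-0.57) fell, per the authors' deposited table, as did the ubiquitin ligase genes Stub1 (-0.46) and Skp2 (-0.39). Against their level deciles, Aurka (0.15) and Stub1 (0.05) lay above the median, and C330027C09Rik (-0.07) and Skp2 (-0.05) below. The ubiquitin ligase gene Huwe1 rose from 23.5 to 40.2 FPKM and the kinase gene Gsk3b from 3.69 to 5.07 FPKM, per the authors' deposited table. Both lie in the longest decile of transcripts, whose median log2 fold change was 0.44. Beside genes of like level and length, Huwe1 differed from the median by 0.78 and Gsk3b by -0.07. Fbxw7, the ubiquitin ligase that recognises phosphorylated MYC, was at 14.8 and 13.2 FPKM (q = 0.408, per the authors' deposited table).

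Coactivators of MYC were called about as often as other genes. Of 18 tested, 5 were higher and 4 lower, beside 22.4% and 28.4% of all tested genes, with a median of -0.07. Against level deciles, 11 of the 18 lay above the median of their decile and 7 below, with a median difference of 0.33. The scaffold gene Trrap rose from 4.34 to 9.38 FPKM, the cyclin gene Ccnt1 of the elongation kinase from 3.75 to 9.77 FPKM and the remodeller Ep400 from 8.84 to 14.5 FPKM, and Bptf (0.40) rose as well, per the authors' deposited table. All of these lie in the longest decile of transcripts, whose median log2 fold change was 0.44. Beside genes of like level and length they stood above the median by 0.85, 1.12, 0.45 and 0.40 in turn. Falls were called for Ruvbl1 (-0.86), Kat5 (-0.73), Actl6a (-0.65) and Paf1 (-0.52), per the authors' deposited table. From the medians of their level deciles these 4 differed by -0.14, -0.39, 0.07 and -0.01 in turn. Zbtb17, which encodes the MYC partner MIZ1, was at 6.02 FPKM in WT against 6.08 FPKM in KO (q = 0.965, per the authors' deposited table).

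MXD and MNT recruit the SIN3 and histone deacetylase corepressor. Of 16 tested genes listed with this corepressor, 8 were lower and 1, Ncor1, was higher, beside 28.4% and 22.4% of all tested genes. The other 7 were not called, and the median was -0.38. Rbbp7, a histone-binding subunit, fell from 291 to 146 FPKM, Ing2 from 19.0 to 10.7 FPKM and Sap30 from 146 to 84.1 FPKM, per the authors' deposited table. The scaffold genes Sin3a (0.07, q = 0.721) and Sin3b (-0.29, q = 0.112) were not called, per the authors' deposited table, and Ncor1 rose (0.43). Ncor1 lies in the longest decile of transcripts, whose median log2 fold change was 0.44, and stood 0.43 above the median of genes of like level and length. Of the 16, 9 lay above the median of their level decile.

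The Polycomb complex that holds MGA and MAX had 5 of 10 genes lower and none higher, beside 28.4% and 22.4% of all tested genes. Cbx3, which binds methylated histone H3, fell from 337 to 155 FPKM and Pcgf6, the subunit that defines this complex, from 73.4 to 39.4 FPKM, per the authors' deposited table. Rnf2 (-0.48), Tfdp1 (-0.46) and Yaf2 (-0.43) fell too, while E2f6 stood at 11.0 and 10.9 FPKM (q = 0.944), per the authors' deposited table. The median over the list was -0.40, and 6 of the 10 lay above the median of their level decile. All 10 fold changes of this list were below 0 as measured, the nearest at -0.02, and with equal sums its median was 0.25.

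Germline genes known as repressed by MGA with MAX were not all silent here: Hormad1 stood at 85.3 FPKM in WT, Stra8 at 43.5 FPKM and Dazl at 21.7 FPKM, per the authors' deposited table. Of 17 tested, 4 were higher and 2 lower, beside 22.4% and 28.4% of all tested genes, and 11 were not called. Their median was 0.03, and 12 of the 17 lay above the median of their level decile. The cohesin genes Smc1b (from 9.34 to 17.7 FPKM) and Stag3 (from 12.2 to 21.7 FPKM) rose, per the authors' deposited table, and so did the meiotic gene Gm1564, now Meioc (0.84), and Tex101 (0.60). The meiotic chromosome axis genes Hormad1 (-0.70) and Sycp3 (-0.69) fell, per the authors' deposited table. Ddx4 at 14.5 and 14.6 FPKM, Dazl at 21.7 and 25.5 FPKM and Stra8 at 43.5 and 41.6 FPKM, in WT and KO, were not called, per the authors' deposited table.

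Nucleolar genes known as MYC targets were all called lower. All 23 tested genes of ribosome biogenesis fell, from 23 in the list, where 28.4% of all tested genes were called lower. Their median log2 fold change was -0.94, with a range from -1.32 to -0.35. Wdr74 fell from 154 to 62.0 FPKM, Nop58 from 770 to 333 FPKM and Npm1, which encodes nucleophosmin, from 11451 to 4726 FPKM, per the authors' deposited table; copies of Npm1 elsewhere in the genome make its level uncertain. These genes are abundant and lie in level deciles 8 to 10, where 44.9%, 59.8% and 77.3% of tested genes were called lower in turn. Against the median of their own decile, 19 of the 23 lay below it and 4 above, with a median difference of -0.22. With equal sums the list's median was -0.29 and 16 of the 23 remained below 0.

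Targets of MYC in metabolism, translation and the cell cycle were lower in most cases. Of 31 tested, 20 were lower and 4 higher, beside 28.4% and 22.4% of all tested genes, and 7 were not called, with a median of -0.60. Ccnd2, which encodes cyclin D2, fell from 2.27 to 0.440 FPKM, the nucleotide kinase gene Nme1 from 524 to 220 FPKM and Ran, a nuclear transport GTPase gene, from 831 to 367 FPKM, per the authors' deposited table, where reads of Nme1 and its close relative Nme2 may be mixed. Odc1, the polyamine enzyme gene used as a classical MYC target, fell from 797 to 413 FPKM, per the authors' deposited table. Against that direction, Tert, the telomerase gene, rose from 2.27 to 4.64 FPKM, Tfrc, the transferrin receptor gene, from 99.6 to 199 FPKM, and Eno1 (0.91) and the glucose transporter gene Slc2a1 (0.39) rose, per the authors' deposited table. Within level deciles the list was nearly even, with 17 genes below and 14 above the median of their decile. The list's median turned to 0.05 with equal sums.

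The list of MYC and MIZ1 repressed genes was short, and which of them depend on MIZ1 was not tested. Of 6 tested out of 8 (Gas1 and Thbs1 were not tested), 3 rose and 1 fell, beside 22.4% and 28.4% of all tested genes, and 2 were not called. Against level deciles, 3 lay above the median of their decile and 3 below, with a median difference of 0.34. Ndrg1 rose from 6.93 to 25.02 FPKM, its relative Ndrg2 from 11.4 to 21.7 FPKM and the cell cycle inhibitor gene Cdkn1a from 21.6 to 34.7 FPKM, per the authors' deposited table. Ndrg1 also answers to hypoxia and Cdkn1a to p53, so neither is specific to MYC. Gadd45a, a growth arrest gene, went the other way and fell from 80.1 to 25.5 FPKM, per the authors' deposited table, while Cdkn1b (-0.27) and Cdkn2b (0.01) were not called.

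Both glucose-sensing partners of MLX rose. Mlxip, which encodes MondoA, rose from 3.60 to 6.80 FPKM and Mlxipl, which encodes ChREBP, from 1.25 to 2.98 FPKM, per the authors' deposited table, opposite in direction to Mlx as measured. Both lay above the median of their level decile, by 0.83 and 0.90 on the log2 scale. Beside genes of like level and length they lay above the median by 0.65 and 1.08. All 6 listed targets of these pairs were called, where 50.8% of all tested genes were, 3 higher and 3 lower, and their median was 0.0040 on the log2 scale. Against level deciles, 4 of these targets lay above the median of their decile and 2 below, with a median difference of 0.20. The glucose-responsive arrestin gene Arrdc4 fell from 21.6 to 10.9 FPKM, with Klf10 (-0.68) and the thioredoxin-binding gene Txnip (-0.39), while the lipid synthesis genes Fasn (0.51) and Acaca (0.40) and the pyruvate kinase gene Pklr (0.74) rose, per the authors' deposited table.

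**Figure D4:**
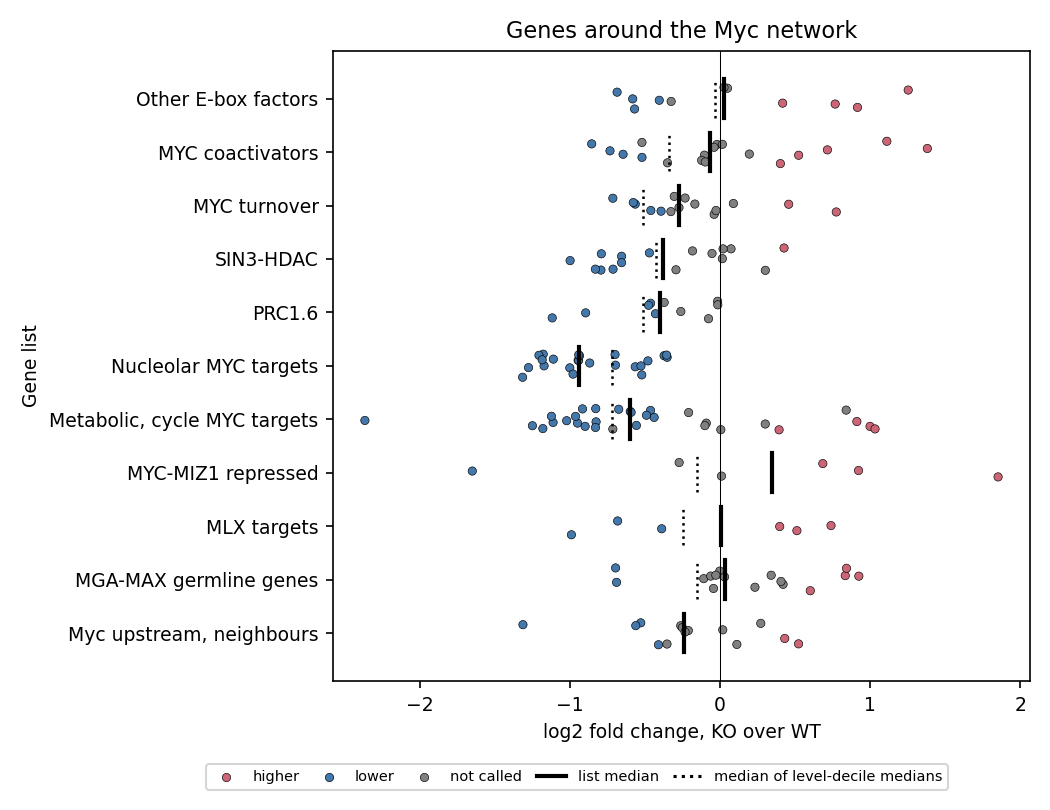
Log2 fold change of KO over WT for each tested gene (points, coloured by the deposited call) of the 11 lists around the network; solid bars mark each list's median and dotted bars the median of the level-decile medians of its genes. As measured, all nucleolar MYC targets lie below 0, with a median of -0.94, whereas coactivators, MLX targets and germline genes lie on both sides.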

How the data were processed

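Strand-specific messenger RNA libraries were aligned with TopHat2 to mm9, per the submitters' processing notes; the annotation used is not stated in these sources. The 1 table of the series is laid out like Cuffdiff's output for genes, per the file headers. The authors deposited FPKM values (1 for WT, 1 for KO), a log2 fold change, a test score, a p-value and a q-value, and which of the 2 WT and 4 KO libraries entered them is not stated. Depth is unknown, and the labels do not say whether replicates were separate cultures, so p and q measure only the spread between these libraries, which may be technical.

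No expression test was run anew. Genes were called at the authors' deposited q under 0.05, which equals a Benjamini-Hochberg adjustment over 14095 tested genes to within 5.18e-07. Level deciles were formed from the mean FPKM of tested genes, and 56 genes without a finite fold change were left out of medians. Transcript lengths came from the longest GENCODE M21 transcript (99.3% of tested genes), and promoter sequences from RefSeq (GRCm38.p6). All 10 members are named, with Alkbh1, up to 3 called genes per list and direction by smallest q (ties by fold change), and others where a count was 5 or fewer. Further genes (Lifr, Stat3, Ctnnb1, Pvt1, Fbxw7, Zbtb17, Sin3a, Sin3b, E2f6, Ddx4, Dazl, Stra8, Odc1 and the neighbours of members) were chosen after their values were seen. The values of 1 called gene in each of 2 lists are not reported here. The members and lists were chosen with earlier results of these data known. The calling and decile steps were run on simulated data whose p was computed around the known level trend. That run checks only that the steps work as written, and says nothing about the deposited p and q. Python 3.11.15, pandas 2.3.3 and NumPy 2.4.6 were used.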

Additional observations from a re-analysis of the deposited data

How the results depend on the processing

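No paired analysis was possible because the table holds 1 value per condition and no value per library; for the same reason no replicate could be left out. Among the members, the directions of Mycn, Myc, Mga and Mxd4 stayed the same under every alternative in which they were tested. Max and Mlx both came near 0 in 2 of the alternatives. With equal summed FPKM, Max turned to 0.012 and Mlx stood at -0.02. Against genes of like level and transcript length, a comparison added after the data were seen, Max turned to 0.0026 and Mlx stood at -0.03. With at least a 2-fold difference required, 3 members were called, of which 2 were lower (Mycn and Myc) and 1 was higher (Mxd4). At q under 0.01 the number higher was 1, since Mga was lost, and it was also 1 when the adjustment left out genes under the 25th percentile of level, which removed Mxd4 from testing. The 2.89-fold difference in the ratio of the Myc family to its repressive partners was 2.46 without Mga, 4.59 over called members, a choice that the changes themselves decide, and 2.89 with Mxd1 added. The cause of these shifts was not tested beyond the genes named.

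For the lists, a 2-fold threshold left as lower 8 of 23 nucleolar targets and 6 of 31 metabolic and cell cycle targets. It left 1 of 10 genes of the Polycomb complex and 1 of 14 regulators and neighbours of Myc. None of 11 E-box factors, 15 turnover genes, 16 corepressors and 6 MLX targets remained lower. Among all tested genes, 5.36% were lower at this threshold. Higher were 2 of 18 coactivators, 1 of 6 tested MYC and MIZ1 repressed genes and 0 of 17 germline genes, beside 9.04% of all tested genes. With equal sums the called genes below 0 numbered 1 among E-box factors and 1 among turnover genes. They numbered 2 in the Polycomb complex and 1 among regulators and neighbours of Myc. Against level deciles they numbered 3 among turnover genes, 5 among corepressors and 3 in the Polycomb complex. Among regulators and neighbours of Myc they numbered 2. Against level and length they numbered 3 in the Polycomb complex. At q under 0.01, 3 of 15 turnover genes were lower, beside 22.6% of all tested genes. Of 123 counts recomputed for the lists and the members, 97 were within 1.5 times the value reported and 26 were not.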

Other observations

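Factors of the helix-loop-helix zipper class that bind E-boxes and were not among the 10 members were also measured. With Mlxip, Mlxipl and the MXD gene Mxd1, 4 of 11 were called higher and 4 lower, beside 22.4% and 28.4% of all tested genes. The median log2 fold change was 0.03. Against level deciles, 4 of the 11 lay above the median of their decile and 7 below, with a median difference of -0.06. The sterol regulators Srebf2, from 14.0 to 23.8 FPKM, and Srebf1, from 8.18 to 10.9 FPKM, rose, per the authors' deposited table, where both share their region with another gene. The broadly expressed Usf1 fell from 62.1 to 41.8 FPKM, and Tfap4, itself known as a MYC target, from 11.6 to 7.22 FPKM, per the authors' deposited table. The lysosomal regulators Tfeb, from 3.69 to 2.46 FPKM, and Tfe3, from 29.2 to 22.1 FPKM, fell as well, per the authors' deposited table, and Mitf stood at 5.16 and 5.25 FPKM (q = 0.915).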
